A study of Arabidopsis thaliana with 9 samples.

Results

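The OE1 line, which overexpresses the tea glutathione S-transferase gene CsGSTF1, was compared with the tt19-8 mutant by RNA sequencing of Arabidopsis thaliana seedlings. The 3 OE1 libraries and the 3 tt19-8 libraries were set against each other, and a gene was included when it reached at least 1 FPKM in at least 3 of these 6 libraries. Of the 33602 genes in the files, 17627 met this rule and 15975 did not. FPKM is the number of fragments per kilobase of gene, scaled to the library's total, so levels of different genes are compared per length. The whole series has 9 libraries in 3 groups, and the second overexpressing line was not part of the comparison.

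Per the labels, tt19-8 is a knock-out of TT19, and OE1 is described by its overexpression of CsGSTF1 alone. The title of the series asks whether CsGSTF1 restores the anthocyanin that tt19-8 lacks. The labels give neither the promoter that drives CsGSTF1 nor the genetic background of OE1. Both groups were whole seedlings at 9 d of age, raised on MS medium with 2% sucrose, and no other agent is named. The labels do not say that the libraries of a group came from separate cultures, so p-values measure only the spread between these samples. Pigment was not analysed here. In whole seedlings, fewer cells of a type and less RNA per cell cannot be told apart.

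Anthocyanins are made in the cytosol by the flavonoid pathway and stored in the vacuole. TT19, also called GSTF12, is a phi-class glutathione S-transferase that binds anthocyanin and is required for its accumulation in the vacuole. The pathway is switched on by complexes of MYB, bHLH and WD40 proteins, and in Arabidopsis it responds to sucrose and to phosphate shortage. The phosphate starvation response itself is driven by the transcription factor PHR1, which binds the palindromic sequence GNATATNC, known as P1BS, and raises genes for phosphate uptake, phosphate release and membrane lipid replacement.

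The sequence before 3 genes of the phosphate-starvation list is shown to set genes whose groups did not overlap beside one whose groups did. PS2 (AT1G73010) encodes an inorganic pyrophosphatase and NPC4 (AT3G03530) a phospholipase C, and both were lower in every OE1 library than in every tt19-8 library. SPX3 (AT2G45130) encodes a phosphate-sensing SPX protein, and its groups overlapped. Each line gives the 300 bases that precede the annotated start of the gene, from RefSeq on TAIR10.1, written 5′ to 3′ along the gene's strand, with matches to P1BS in capitals. The windows are chr1:27466349-27466648 (minus strand) for PS2, chr3:845097-845396 (minus strand) for NPC4 and chr2:18606110-18606409 (plus strand) for SPX3.
PS2: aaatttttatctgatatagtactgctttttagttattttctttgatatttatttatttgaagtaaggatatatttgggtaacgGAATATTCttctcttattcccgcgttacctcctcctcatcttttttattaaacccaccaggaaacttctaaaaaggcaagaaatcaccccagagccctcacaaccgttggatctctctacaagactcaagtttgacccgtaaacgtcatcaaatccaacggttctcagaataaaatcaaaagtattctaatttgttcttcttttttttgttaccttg
NPC4: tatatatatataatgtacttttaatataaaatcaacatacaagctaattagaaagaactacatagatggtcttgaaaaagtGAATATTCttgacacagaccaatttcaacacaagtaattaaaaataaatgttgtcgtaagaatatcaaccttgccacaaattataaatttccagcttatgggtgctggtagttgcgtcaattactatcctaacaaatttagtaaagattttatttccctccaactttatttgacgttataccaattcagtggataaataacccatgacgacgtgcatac
SPX3: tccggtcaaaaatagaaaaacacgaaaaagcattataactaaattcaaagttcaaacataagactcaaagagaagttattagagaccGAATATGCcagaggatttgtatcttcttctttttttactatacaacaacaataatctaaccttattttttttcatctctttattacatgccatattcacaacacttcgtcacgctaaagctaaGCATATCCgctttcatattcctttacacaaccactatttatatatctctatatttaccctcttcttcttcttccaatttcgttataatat
A P1BS match on either strand, which for this palindrome is the same set, occurred in 7 of the 26 windows of the phosphate-starvation list, or 26.9%. Over all coding and long non-coding genes it occurred in 2022 of 31143 windows, or 6.5%. The 7 genes were PHT1;2, AT4, SPX3, PS2, MGD2, GDPD1 and NPC4. Of the 11 list members whose OE1 libraries all lay below all tt19-8 libraries, PS2 and NPC4 held a match in this window. A match is a description of the letters and not of binding.

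Depth was similar across the 6 libraries, at 48.6 to 57.5 M fragments as read from the steps between low FPKM values, and 3 fragments in a gene of 1 kb correspond to 0.0522 to 0.0618 FPKM. These limits cover counting error only. Markers of shoot tissue were at 1 FPKM or more in every library for 5 of 5 genes, markers of root for 4 of 7, and markers of root hairs for 5 of 6, so shoot, root and root hair were all represented. Of 9 seed markers, 1 reached 1 FPKM in every library, and their summed level was 3.26 to 75.1 FPKM in OE1 and 101 to 621 FPKM in tt19-8.

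TT19 (AT5G17220, chromosome 5, 5658416 to 5659661, plus strand, TAIR10.1) was near 0 in both groups. It measured 0, 0.0769 and 0.0712 FPKM in OE1 replicates 1, 2 and 3, and 0.113, 0.0399 and 0 FPKM in tt19-8 replicates 1, 2 and 3. It therefore does not tell the groups apart, and CsGSTF1 is not among the genes in the files. The genotype of a single library could not be checked from the data.

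One library stood apart from its group. On the first principal component, which held 49.3% of the variance, tt19-8 replicate 3 lay at -14.6, whereas tt19-8 replicates 1 and 2 lay at 36.9 and 47.4 and the OE1 libraries at -31.5, -13.9 and -24.4. Across genes, its values correlated at 0.979 to 0.981 with the OE1 libraries and at 0.965 to 0.967 with the other tt19-8 libraries. The most abundant transcript told the same libraries apart. EXT3, a cell wall extensin, took 2.8 to 6.13% of the FPKM total in OE1 and 5.2% in tt19-8 replicate 3, while in tt19-8 replicates 1 and 2 it took 2.09 and 1.34% and the aquaporin PIP2;1 was the highest gene. Results below are from all 6 libraries, and those without tt19-8 replicate 3 are named as such.

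**Figure D1:**
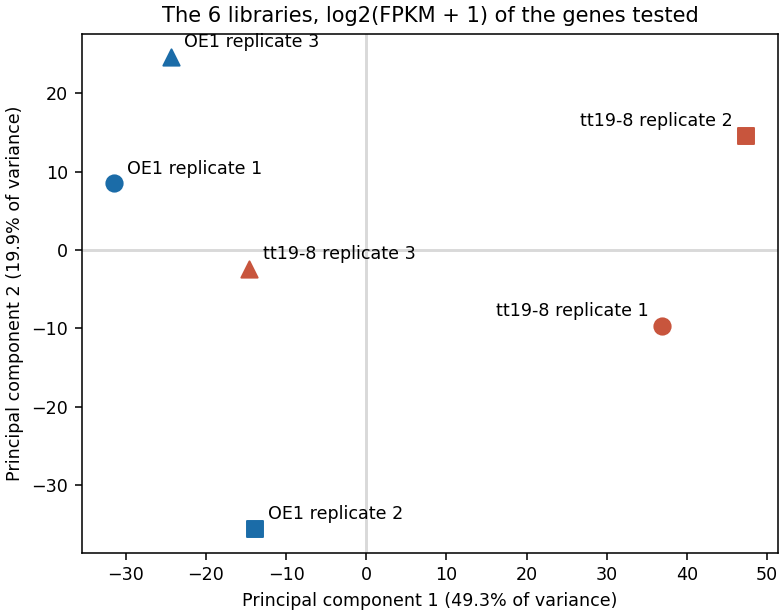
Scores of the 6 libraries on the first principal component (x axis) and the second (y axis) of log2(FPKM + 1), with OE1 in blue, tt19-8 in red and the marker shape giving the replicate number. On the x axis tt19-8 replicate 3, at -14.6, lies among the OE1 libraries (-31.5 to -13.9) and away from tt19-8 replicates 1 and 2 (36.9 and 47.4).

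With all 6 libraries, no gene passed the threshold in limma, at an adjusted p of 0.05, in either direction (0 of 17627, 0.0%). The lowest adjusted p was 0.168, and at an unadjusted p under 0.05 there were 739 genes higher in OE1 (4.19%) and 1776 lower (10.1%). Without any test, the libraries of both groups did not overlap for 704 genes that lay above in OE1 (3.99%) and 2400 that lay below (13.6%). The median log2 change of all genes tested was -0.12, so the deposited values as a whole were somewhat lower in OE1. After median-ratio scaling, which sets that median to -0.00, 1503 genes lay above (8.53%) and 1444 below (8.2%), and at an unadjusted p under 0.05 there were 1412 genes higher (8.01%) and 1031 lower (5.85%), again with none past the threshold. Directions are therefore read against this shift.

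Without tt19-8 replicate 3, 1823 of 17375 genes passed in limma (10.5%), of which 569 were higher in OE1 (3.27%) and 1254 lower (7.22%). With the median-ratio scaling as well, 1344 passed, and the balance turned to 870 higher (5.01%) against 474 lower (2.73%). The calls shared by both settings numbered 1024, which is 56.2% of the first set and 76.2% of the second. For 1657 of the 1823 genes (90.9%), tt19-8 replicate 3 itself lay nearer to the OE1 mean than to the mean of the other tt19-8 libraries, and for 831 it lay inside the range of the OE1 libraries. The groups still did not overlap over all 6 libraries for 799 of the 1823 (43.8%), with 177 higher and 622 lower in OE1.

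**Figure D2:**
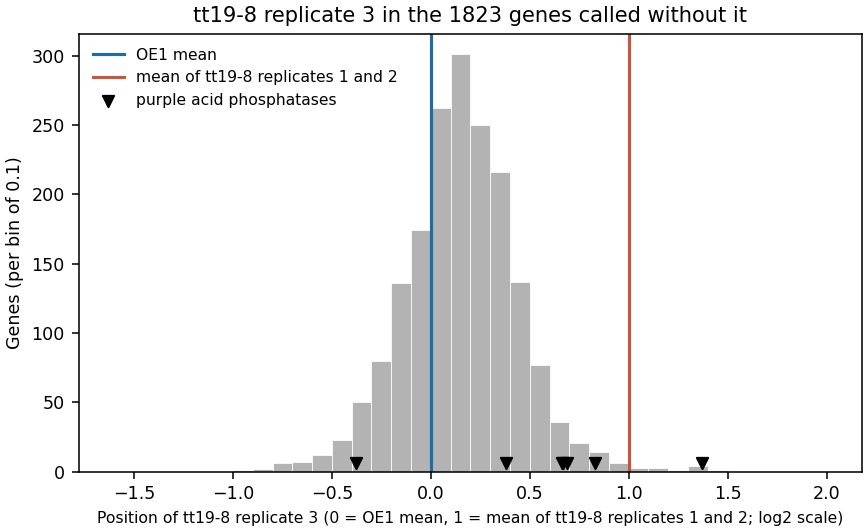
Histogram of the 1823 genes called without tt19-8 replicate 3, by where that library lies on the log2(FPKM + 1) scale between the OE1 mean (0, blue line) and the mean of tt19-8 replicates 1 and 2 (1, red line), in bins of 0.1. The median position was 0.15, and the black triangles mark the 7 purple acid phosphatases among these genes, 5 of which lie nearer to tt19-8. That family was collected after some members had been seen to differ, so the triangles are not an independent set.

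Many of the phosphate-starvation genes read lower in OE1 than in tt19-8. Of 26 genes on the list, 25 were tested, and for 11 of these every OE1 library lay below every tt19-8 library (44.0%, against 13.6% of all genes), while 1 lay above (4.0%, against 3.99%). The median log2 change of the list was -0.44, against -0.12 for all genes. After median-ratio scaling 8 members lay below (against 8.2% of all genes) and 1 above (against 8.53%), with a median of -0.32 against -0.00. No member passed the threshold with 6 libraries, and 7 passed as lower without tt19-8 replicate 3 (7.22% of all genes did). With the scaling as well, 6 passed as lower (against 2.73%) and 1 as higher (against 5.01%). The 7 that passed without the scaling were PHT1;1, PHT1;4, PHT1;5, IPS1, PS2, SQD2 and PHO1.

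The transporters came first among them. PHT1;1 (AT5G43350, chromosome 5, 17399769 to 17402158), a root phosphate importer, measured 18.1, 19.2 and 24.7 FPKM in OE1 against 40.8, 59.9 and 43.0 FPKM in tt19-8. All 3 OE1 libraries were lower than all 3 tt19-8 libraries, tt19-8 replicate 3 included. The log2 change was -1.16 ± 0.21 (SE), with an adjusted p of 0.205 in limma. Without tt19-8 replicate 3 the adjusted p was 0.0148, and over all alternatives it ran from 0.00719 to 0.833. PHT1;1 has a near-identical neighbour, PHT1;2, which read 0.311 to 0.918 FPKM and was not tested, so the division of reads between them is uncertain.

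PHT1;4, a second importer, measured 18.8, 23.2 and 23.3 FPKM in OE1 against 50.8, 58.8 and 26.7 FPKM in tt19-8. The groups did not overlap, but tt19-8 replicate 3 lay close to OE1. PHT1;5, which moves phosphate between organs, measured 3.63, 5.15 and 4.79 FPKM in OE1 against 23.1, 12.2 and 4.48 FPKM in tt19-8. Here tt19-8 replicate 3 lay inside the OE1 range. PHO1, which loads phosphate into the xylem, measured 80.7, 93.2 and 82.8 FPKM in OE1 against 143, 162 and 97.5 FPKM in tt19-8. Its relative PHO1;H1 read 8.26 to 9.56 FPKM in OE1 and 11.5 to 15.9 FPKM in tt19-8. Neither of these overlapped between groups, and the log2 changes were -0.61 ± 0.22 for PHO1 and -0.52 ± 0.20 for PHO1;H1.

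Among the regulators, IPS1, a non-coding RNA that sequesters the microRNA miR399, measured 3.8, 1.02 and 4.14 FPKM in OE1 against 7.79, 14.3 and 7.34 FPKM in tt19-8. The groups did not overlap, and the log2 change was -1.50 ± 0.36 with an adjusted p of 0.294 in limma (0.018 to 0.833 over the alternatives). Its relative AT4 measured 74.2, 52.8 and 77.1 FPKM in OE1 against 65.5, 66.0 and 72.6 FPKM in tt19-8. These groups overlapped, with a log2 change of -0.02 ± 0.20 that stood at 0.00 to 0.20 under 6 alternatives. The SPX proteins, which hold PHR1 back when phosphate is ample, did not move one way. SPX1 read 23.0 to 35.6 FPKM in OE1 and 35.9 to 49.5 FPKM in tt19-8, lower without overlap, by -0.52 ± 0.21. SPX2 read 8.48 to 11.3 FPKM in OE1 and 5.67 to 8.45 FPKM in tt19-8, and was the 1 member of the list above tt19-8, by 0.49 ± 0.22. SPX3 overlapped, at 4.08 to 5.18 and 4.35 to 7.37 FPKM. PHR1 itself read 10.8 to 14.2 FPKM in OE1 and 11.2 to 12.8 FPKM in tt19-8, and PHO2, which marks transporters for degradation, read 164 to 207 and 143 to 210 FPKM.

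Enzymes that release phosphate or replace phospholipids made up the rest of the list. PS2 measured 53.4, 50.9 and 70.8 FPKM in OE1 against 166, 118 and 95.7 FPKM in tt19-8. No libraries overlapped, and the log2 change was -1.08 ± 0.23, with an adjusted p of 0.294 in limma with all libraries and 0.0137 without tt19-8 replicate 3 (0.00638 to 0.833 over the alternatives). SQD2, which makes the sulfolipid that replaces phospholipid in plastids, measured 166, 164 and 157 FPKM in OE1 against 294, 292 and 174 FPKM in tt19-8. SQD1, the step before it, overlapped through tt19-8 replicate 3 and read 124 to 168 and 161 to 235 FPKM. NPC4 read 4.63 to 5.44 FPKM in OE1 and 6.79 to 8.38 FPKM in tt19-8, PECP1, a phosphocholine phosphatase, 5.11 to 6.29 and 7.66 to 8.86 FPKM, and the ribonuclease RNS1 11.4 to 17.3 and 17.7 to 20.5 FPKM, each without overlap. The galactolipid synthases MGD2 and MGD3, GDPD1, PHF1 and the phosphatases PAP10, PAP12 and PAP17 overlapped.

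**Figure D3:**
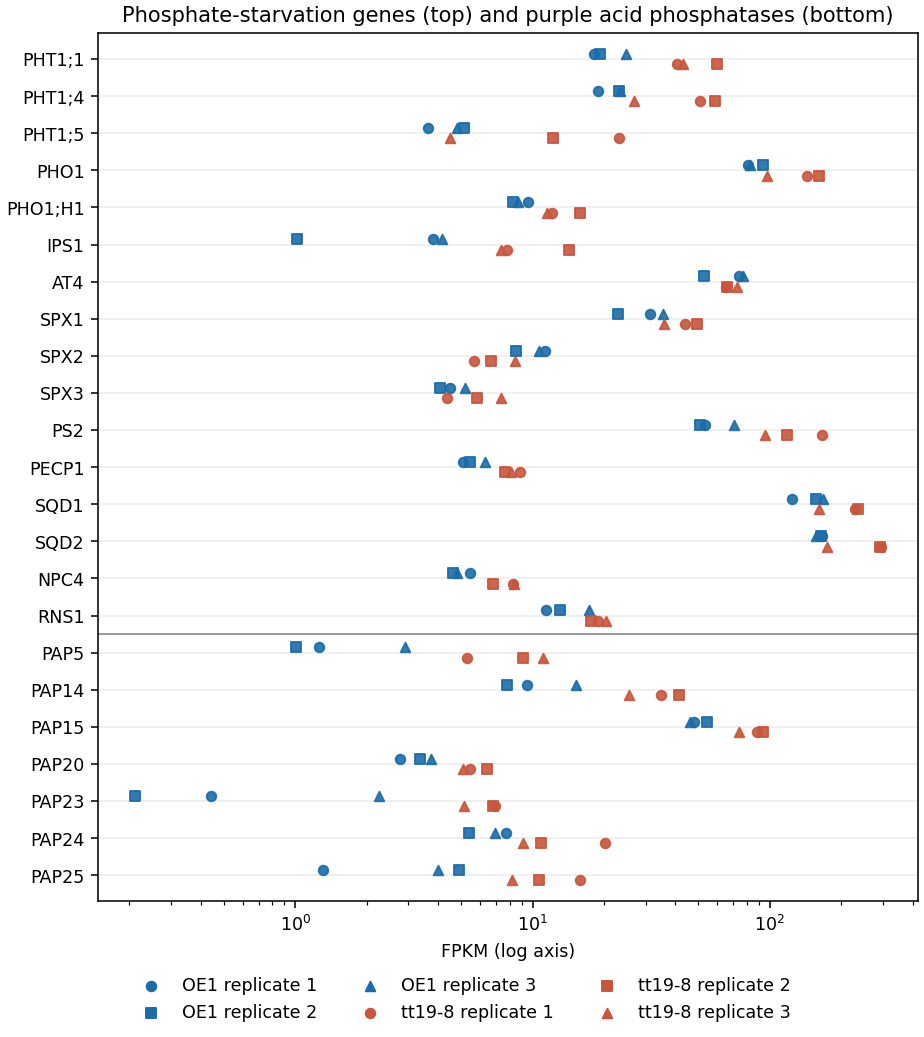
FPKM on a log axis in each of the 6 libraries (OE1 in blue, tt19-8 in red, marker shape for the replicate) for 16 genes of the phosphate-starvation list, above the line, and 7 purple acid phosphatases, below it. All 7 phosphatases and 11 of the 16 upper genes have every OE1 library below every tt19-8 library, and SPX2 has every OE1 library above.

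The purple acid phosphatases, metal-containing enzymes that free phosphate from organic compounds, held several of the steepest differences. They are written PAP with a number, as are the unrelated MYB regulators PAP1 and PAP2 of the anthocyanin pathway. Of the 27 family members annotated, collected after some had been seen to differ, 22 were tested. For 7 of these, PAP5, PAP14, PAP15, PAP20, PAP23, PAP24 and PAP25, all OE1 libraries lay below all tt19-8 libraries (31.8%, against 13.6% of all genes), and none lay above. The same 7 of 22 lay below after median-ratio scaling (8.2% of all genes), with 1 member then above (against 8.53%). Without tt19-8 replicate 3, 7 members passed as lower (7.22% of all genes did), which were the same genes with PAP28 in place of PAP20. With the scaling as well, 5 passed as lower (against 2.73%) and 0 as higher (against 5.01%).

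PAP23 (AT4G13700, chromosome 4, 7957072 to 7958919) measured 0.443, 0.212 and 2.26 FPKM in OE1 against 6.94, 6.82 and 5.14 FPKM in tt19-8. All tt19-8 libraries were high, and OE1 replicate 3 was the highest of its group. The log2 change was -2.02 ± 0.33, with an adjusted p of 0.172 in limma (0.00638 to 0.833 over 16 alternatives, 5 of which passed). PAP5 (AT1G52940, chromosome 1, 19716402 to 19723725) measured 1.26, 1.01 and 2.89 FPKM in OE1 against 5.31, 9.09 and 11.1 FPKM in tt19-8. Here tt19-8 replicate 3 was the highest of the 6 libraries. The log2 change was -1.82 ± 0.31, with an adjusted p of 0.172 in limma (0.00804 to 0.833, with 5 of 16 alternatives past the threshold). PAP14 (AT2G46880, chromosome 2, 19264573 to 19266456) measured 9.44, 7.78 and 15.2 FPKM in OE1 against 34.9, 41.3 and 25.6 FPKM in tt19-8. Its groups were well apart, with a log2 change of -1.59 ± 0.26 and an adjusted p of 0.172 in limma (0.00638 to 0.833).

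PAP25 measured 1.31, 4.91 and 4.01 FPKM in OE1 against 15.9, 10.6 and 8.23 FPKM in tt19-8, with a log2 change of -1.58 ± 0.35. PAP15, a phytase, measured 48.1, 54.3 and 46.2 FPKM in OE1 against 88.5, 93.3 and 74.3 FPKM in tt19-8, with a log2 change of -0.77 ± 0.18. All 3 tt19-8 libraries of both genes lay above OE1, replicate 3 lowest among them. PAP24 read 5.38 to 7.76 FPKM in OE1 and 9.08 to 20.2 FPKM in tt19-8, and PAP20 2.75 to 3.73 and 5.1 to 6.43 FPKM. PAP28 overlapped, because tt19-8 replicate 3 read 0.739 FPKM where tt19-8 replicates 1 and 2 read 3.32 and 3.3 FPKM and OE1 read 0.737 to 1.72 FPKM. The most abundant member, PAP26, which is the main vacuolar acid phosphatase, read 73.9 to 89.2 FPKM in OE1 and 83.0 to 117 FPKM in tt19-8 and overlapped too. For 5 of the 7 members called without it, tt19-8 replicate 3 lay nearer to the mean of the other tt19-8 libraries than to OE1. The family was collected after some members had been seen to differ, so these positions cannot be set against those of all genes.

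**Figure D4:**
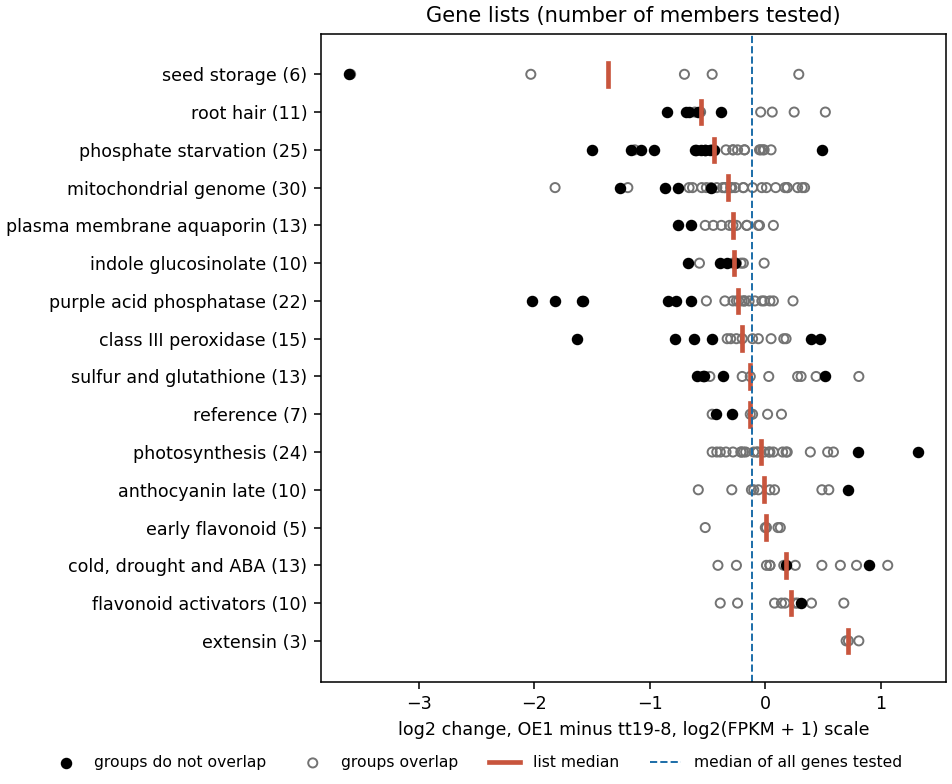
Log2 change of OE1 against tt19-8 (x axis, log2(FPKM + 1) scale) for each tested member of 16 gene lists, with filled points where the groups do not overlap, open points where they do, a red bar at the list median and a dashed blue line at the median of all genes tested (-0.12). The medians run from -1.36 for seed storage genes and -0.44 for phosphate starvation to 0.72 for extensins.

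In the anthocyanin pathway, the reductase DFR was higher in OE1 and the other genes overlapped or differed in opposite directions. Of 11 late genes, 10 were tested, and 1 of the 10 lay above without overlap (3.99% of all genes did) and 0 below. The median log2 change was -0.01. DFR (AT5G42800, chromosome 5, 17164093 to 17166032), which makes leucoanthocyanidin, measured 485, 456 and 584 FPKM in OE1 against 354, 289 and 279 FPKM in tt19-8. All OE1 libraries were above all tt19-8 libraries, with a log2 change of 0.72 ± 0.21 and an adjusted p of 0.294 in limma. The adjusted p was 0.0565 without tt19-8 replicate 3 and 0.0241 to 0.833 over the alternatives.

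LDOX, the next enzyme, measured 26.2, 35.8 and 42.8 FPKM in OE1 against 20.0, 27.0 and 22.8 FPKM in tt19-8. OE1 replicate 1 lay within the tt19-8 range, and the log2 change was 0.55 ± 0.22. UGT75C1, which adds a glucose to the anthocyanin, measured 54.0, 72.6 and 78.4 FPKM in OE1 against 54.5, 44.3 and 44.7 FPKM in tt19-8. It overlapped through OE1 replicate 1 and tt19-8 replicate 1, which read nearly alike, with a log2 change of 0.49 ± 0.20. After median-ratio scaling, 3 late genes lay above tt19-8 (against 8.53% of all genes) and 0 below (against 8.2%).

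BGLU10, a vacuolar enzyme that glucosylates anthocyanin, measured 38.0, 51.0 and 38.4 FPKM in OE1 against 69.0, 82.7 and 44.8 FPKM in tt19-8. It overlapped with 6 libraries, had a log2 change of -0.58 ± 0.24, and fell without tt19-8 replicate 3, with an adjusted p of 0.0296 in limma (0.0128 to 0.833 over the alternatives). Adding median-ratio scaling there left 0 late genes passing as lower (against 2.73% of all genes) and 1 as higher (against 5.01%). The xylosyltransferase UGT79B1 read 9.88 to 16.9 FPKM in OE1 and 10.4 to 19.6 FPKM in tt19-8. The glucosyltransferase UGT78D2, the acyltransferases 5MAT, 3AT1 and 3AT2 and the sinapoyl-transfer gene SCPL10 all overlapped, at 11.6 to 73.3 FPKM in OE1 and 12.1 to 63.5 FPKM in tt19-8.

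Early in the pathway, CHS, the chalcone synthase that commits carbon to flavonoids, measured 1142, 1010 and 1183 FPKM in OE1 against 2652, 1738 and 867 FPKM in tt19-8. The OE1 libraries were close together and tt19-8 replicate 3 lay below all of them, so the groups overlapped. The log2 change was -0.52 ± 0.34 with 6 libraries and -0.95 ± 0.22 without tt19-8 replicate 3, where it fell with an adjusted p of 0.03 in limma (0.0246 to 0.897 over the alternatives). No early gene, CHS included, passed once median-ratio scaling was applied there too. CHI, CHIL, F3'H and FLS1 overlapped, and for CHI, CHIL and F3'H tt19-8 replicate 3 was the lowest of the 6 libraries. F3H (AT3G51240, chromosome 3, 19025192 to 19026872, plus strand) was listed at no more than 0.0786 FPKM in any of the 6 libraries and was not tested. An antisense gene annotated on the minus strand, AT3G51238, covers 1588 of its 1681 bases, and it read at most 0.0109 FPKM, so the level of F3H was not readable from these values.

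Of the 12 activators of the pathway, 10 were tested and their median log2 change was 0.22, with 1 above without overlap (against 3.99% of all genes), and 0 above after median-ratio scaling (against 8.53%). The 1 was TTG1, the WD40 protein, at 85.6, 87.5 and 83.1 FPKM in OE1 against 64.6, 60.7 and 81.7 FPKM in tt19-8. The log2 change was 0.31 ± 0.19, with an adjusted p of 0.431 in limma. The MYB regulator PAP1 measured 4.72, 3.11 and 10.8 FPKM in OE1 against 2.76, 2.66 and 3.84 FPKM in tt19-8, where OE1 replicate 3 was the highest library and the groups overlapped. PAP2, its close relative, read 0.676 to 2.37 FPKM in OE1 and 0.299 to 1.44 FPKM in tt19-8. The bHLH proteins TT8, GL3 and EGL3 overlapped, EGL3 with 2.46 to 5.17 FPKM in OE1 and 2.46 to 8.35 FPKM in tt19-8, as did HY5, MYB11, MYB12 and MYB111. MYB113 and MYB114 did not exceed 0.324 FPKM.

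Among the repressors, LBD39, a nitrogen-responsive repressor of anthocyanin genes, measured 23.9, 26.1 and 21.5 FPKM in OE1 against 41.4, 50.5 and 27.7 FPKM in tt19-8. All OE1 libraries were lower, by a log2 change of -0.68 ± 0.23, and the adjusted p in limma was 0.294 with 6 libraries, 0.0197 without tt19-8 replicate 3 and 0.0108 to 0.833 over the alternatives. CPC lay above without overlap, at 1.21 to 1.66 and 0.599 to 1.03 FPKM. Of 7 repressors tested, 1 thus lay below (14.3%, against 13.6% of all genes) and 1 above (14.3%, against 3.99%). Median-ratio scaling left 0 below (against 8.2%) and 1 above (against 8.53%), so LBD39 then overlapped. LBD37, LBD38, MYBL2, SPL9 and MYB4 overlapped.

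**Figure D5:**
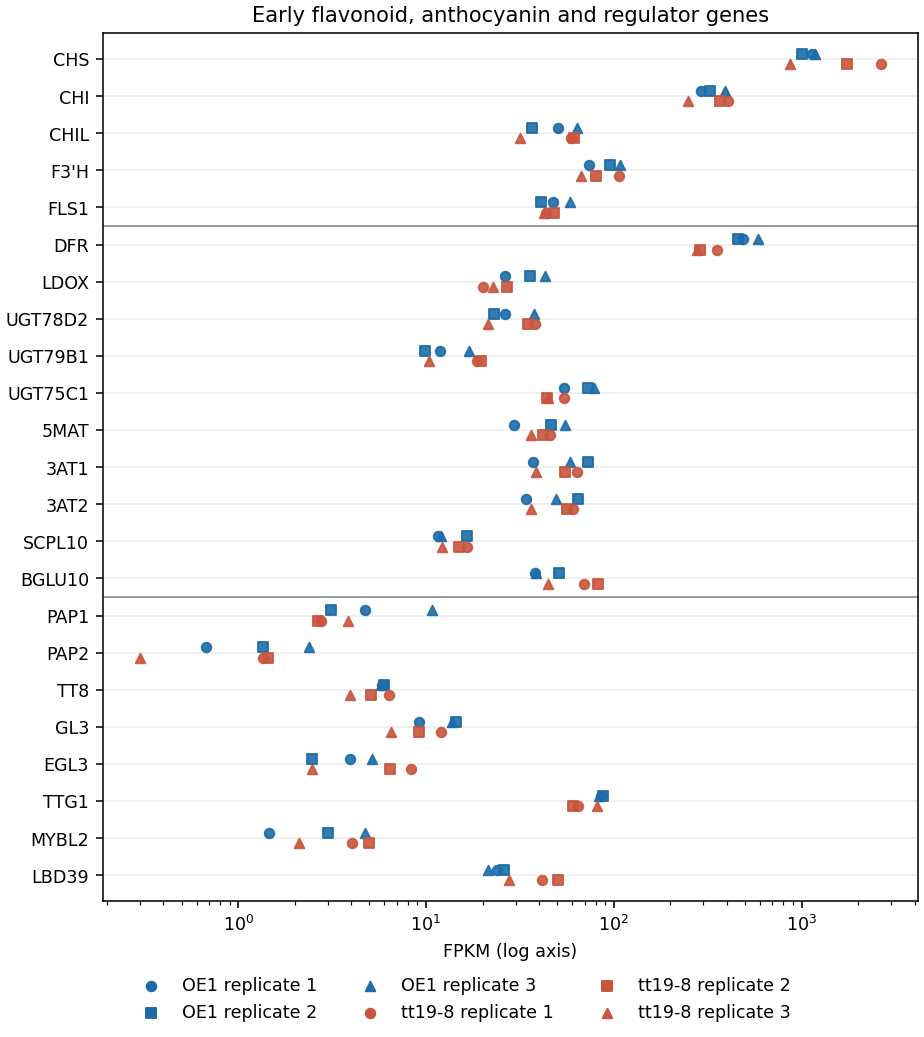
FPKM on a log axis in each of the 6 libraries (OE1 in blue, tt19-8 in red, marker shape for the replicate) for early flavonoid genes (top), late anthocyanin genes (middle) and regulators (bottom). DFR and TTG1 have every OE1 library above every tt19-8 library, LBD39 has every OE1 library below, and the red triangle of tt19-8 replicate 3 is the lowest point for CHS, CHI and CHIL.

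Of the root hair list, all 11 genes were tested and none passed with 6 libraries, while 6 overlapped. The other 5 lay below tt19-8 without overlap (45.5%, against 13.6%) and 0 above, and the median log2 change was -0.56. After median-ratio scaling 3 lay below (against 8.2%), and the median was -0.45. XTH14 and PRX44 passed as lower without tt19-8 replicate 3 (7.22% of all genes did), and 1 gene did with the scaling as well (against 2.73%). XTH14, which remodels xyloglucan, measured 5.25, 5.2 and 7.0 FPKM in OE1 against 14.6, 11.4 and 8.46 FPKM in tt19-8. The 3 OE1 libraries were lower, with a log2 change of -0.85 ± 0.24 and an adjusted p of 0.294 in limma, or 0.0246 without tt19-8 replicate 3 (0.00804 to 0.833 over the alternatives).

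The other root hair genes without overlap were the expansins EXPA7, at 3.91 to 5.36 FPKM in OE1 and 7.77 to 9.51 FPKM in tt19-8, and EXPA18, at 8.91 to 12.3 and 13.7 to 14.1 FPKM, with the peroxidases PRX44, at 4.3 to 5.76 and 6.58 to 10.7 FPKM, and PRX73, at 14.1 to 19.2 and 20.9 to 33.0 FPKM. COBL9 and the transcription factor RSL4 were lower on average and overlapped through tt19-8 replicate 3. RHD6 and RHD2 overlapped. The wall proteins PRP3 and LRX1 did not follow the others, and LRX1 measured 50.3, 84.0 and 30.1 FPKM in OE1 against 36.0, 16.8 and 69.7 FPKM in tt19-8.

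Among the extensins, EXT3 measured 41370, 63322 and 30280 FPKM in OE1 against 22181, 14671 and 54928 FPKM in tt19-8. EXT4 measured 10680, 17904 and 10649 FPKM in OE1 against 5185, 4986 and 18450 FPKM in tt19-8. For both, tt19-8 replicates 1 and 2 were the lowest libraries and tt19-8 replicate 3 was high. The log2 changes were 0.72 ± 0.45 and 0.70 ± 0.47 with 6 libraries, and both rose without tt19-8 replicate 3, by 1.25 ± 0.32 and 1.32 ± 0.26, with adjusted p of 0.0405 and 0.0201 in limma. Over the alternatives these ran from 0.0405 to 0.896 for EXT3 and from 0.0201 to 0.887 for EXT4. Adding median-ratio scaling to the fit without tt19-8 replicate 3 left 1 of the 3 extensins passing as higher (against 5.01% of all genes).

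Among 15 class III peroxidases, secreted heme enzymes that act on the cell wall, 4 lay below tt19-8 (26.7%, against 13.6% of all genes) and 2 above (13.3%, against 3.99%). After median-ratio scaling 4 lay below (against 8.2%) and 2 above (against 8.53%). PRX71 (AT5G64120, chromosome 5, 25659257 to 25661007) measured 70.5, 66.7 and 102 FPKM in OE1 against 186, 371 and 213 FPKM in tt19-8. All tt19-8 libraries were high, replicate 3 included, and the log2 change was -1.63 ± 0.27 with an adjusted p of 0.172 in limma (0.00761 to 0.833 over the alternatives). PRX72 measured 43.5, 37.7 and 39.6 FPKM in OE1 against 76.7, 78.2 and 56.9 FPKM in tt19-8, again without overlap. PRX52 and PRX37 were the others below, PRX52 at 15.5 to 23.5 and 24.2 to 37.8 FPKM. PRX12 and PRX23 lay above, PRX23 at 61.6 to 71.0 FPKM in OE1 and 48.2 to 49.0 FPKM in tt19-8.

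The sulfur and glutathione list differed in both directions. Of 13 members tested, 4 lay below (30.8%, against 13.6% of all genes) and 1 above (7.69%, against 3.99%) without overlap. After median-ratio scaling 2 lay below (against 8.2%) and 1 above (against 8.53%). Without tt19-8 replicate 3, LSU1 passed as higher (3.27% of all genes did) and SULTR4;1, SIR and the glutathione synthetase GSH2 as lower (7.22%). With the scaling as well, 3 passed as higher (against 5.01%) and 0 as lower (against 2.73%). Sulfite reductase, SIR, measured 525, 521 and 547 FPKM in OE1 against 768, 1000.0 and 660 FPKM in tt19-8. The vacuolar sulfate exporter SULTR4;1 read 48.3 to 57.7 FPKM in OE1 and 66.7 to 81.6 FPKM in tt19-8, and the root sulfate importer SULTR1;2 75.5 to 101 and 108 to 164 FPKM. These were lower in every OE1 library, whereas APR2, which reduces activated sulfate, was higher in every one, at 26.1 ± 3.42 FPKM in OE1 against a tt19-8 mean of 17.9 ± 2.91 FPKM (SD, n = 3). LSU1, a marker of sulfur shortage, measured 15.0, 11.6 and 15.8 FPKM in OE1 against 4.91, 6.54 and 13.2 FPKM in tt19-8. It overlapped through tt19-8 replicate 3 and rose without it, with an adjusted p of 0.0182 in limma (0.00804 to 0.833 over the alternatives).

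TT19 belongs to the phi class of glutathione S-transferases. Of 11 phi-class genes tested, GSTF5 lay above (9.09%, against 3.99% of all genes) and GSTF7 below (9.09%, against 13.6%) without overlap, and 9 overlapped. GSTF7, a stress-induced member, measured 72.8, 95.1 and 131 FPKM in OE1 against 136, 208 and 144 FPKM in tt19-8. GSTF5 measured 5.11, 5.36 and 5.55 FPKM in OE1 against 2.56, 3.33 and 4.06 FPKM in tt19-8. Of 23 tau-class genes tested, 2 lay above (8.7%, against 3.99% of all genes) and 1 below (4.35%, against 13.6%), with a median log2 change of 0.04. After median-ratio scaling 2 phi-class genes lay above and 1 below, and 3 tau-class genes above and 0 below (8.53% and 8.2% of all genes). No phi-class gene passed without tt19-8 replicate 3, and GSTU17 passed there as lower, with an adjusted p of 0.0389 in limma. Adding the scaling there, 1 phi-class gene passed as higher (against 5.01% of all genes) and no tau-class gene passed.

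Among the photosynthesis genes, 2 of 24 lay above without overlap (8.33%, against 3.99% of all genes) and 0 below (against 13.6%). After median-ratio scaling 6 lay above (against 8.53%) and 0 below (against 8.2%). LHCB2.3 and PSAD2 passed as higher and LHCB3 as lower without tt19-8 replicate 3, with adjusted p of 0.0131, 0.0121 and 0.0452 in limma. Once the scaling was applied there too, 2 photosynthesis genes passed as higher (against 5.01%) and 0 as lower (against 2.73%). LHCB2.3, a light-harvesting protein of photosystem II, measured 23.5, 18.0 and 33.0 FPKM in OE1 against 7.32, 7.86 and 12.8 FPKM in tt19-8. All OE1 libraries were higher, and the log2 change was 1.32 ± 0.26 with an adjusted p of 0.289 in limma (0.00638 to 0.833 over the alternatives). The near-identical genes LHCB2.1 and LHCB2.2 overlapped between the groups, and the division of reads among the 3 copies is uncertain. PSAD2, of photosystem I, measured 393, 400 and 374 FPKM in OE1 against 191, 160 and 362 FPKM in tt19-8, where only tt19-8 replicate 3 came near OE1.

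Cold and abscisic acid genes lay above in 2 of 13 and below in 0 (3.99% and 13.6% of all genes). After median-ratio scaling 3 lay above (against 8.53%) and 0 below (against 8.2%). Without tt19-8 replicate 3, KIN2 passed as higher (3.27% of all genes did) and RD22 as lower (7.22%). With the scaling as well, 2 passed as higher (against 5.01%) and 0 as lower (against 2.73%). The chloroplast protectant COR15B measured 175, 88.4 and 179 FPKM in OE1 against 79.3, 69.9 and 75.8 FPKM in tt19-8. All OE1 libraries were higher, OE1 replicate 2 by the least, with a log2 change of 0.90 ± 0.26. KIN2 overlapped through OE1 replicate 2, at 485 to 846 FPKM in OE1 and 317 to 488 FPKM in tt19-8. In jasmonate synthesis, the lipoxygenase LOX4 was lower in every OE1 library, at 6.48, 6.69 and 7.31 FPKM against 17.6, 18.1 and 9.9 FPKM, and the cyclase AOC2 was higher in every one, at 444, 454 and 576 FPKM against 287, 260 and 421 FPKM. Without tt19-8 replicate 3 both passed, with adjusted p of 0.0121 and 0.0282 in limma, as did JAR1 as lower and JAZ1 as higher, at 0.0424 and 0.0444. Adding the scaling there, 3 jasmonate genes passed as higher (against 5.01%) and 1 as lower (against 2.73%). Of 10 indole glucosinolate genes, 4 lay below without overlap (40.0%, against 13.6% of all genes), which became 1 after median-ratio scaling (against 8.2%). That list included CYP81F2, which modifies indole glucosinolates, at 5.95 to 8.14 FPKM in OE1 and 8.49 to 13.3 FPKM in tt19-8, which passed as lower without tt19-8 replicate 3, with an adjusted p of 0.0339 in limma. None of the 10 passed once the scaling was applied there too.

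Among water channels of the plasma membrane, 2 of 13 lay below without overlap (15.4%, against 13.6% of all genes), and 2 did after median-ratio scaling (against 8.2%). PIP1;1, PIP1;4 and PIP2;2 passed as lower without tt19-8 replicate 3, and PIP2;2 alone with the scaling as well. The 2 below were PIP2;2, at 81.4, 82.2 and 95.4 FPKM in OE1 against 147, 182 and 117 FPKM in tt19-8, and PIP2;4, at 9.46 to 13.1 and 15.1 to 21.3 FPKM. PIP2;2 has close copies in the family, so its reads may be shared with them. PIP2;1, among the highest genes of all, measured 16797, 15230 and 22240 FPKM in OE1 against 24395, 25054 and 15531 FPKM in tt19-8 and overlapped. In iron handling, the phloem transporter OPT3 read 50.3 to 53.9 FPKM in OE1 and 62.9 to 98.6 FPKM in tt19-8 without overlap. The iron store FER1 overlapped through tt19-8 replicate 3, at 394 FPKM, where tt19-8 replicates 1 and 2 read 782 and 1032 FPKM and OE1 read 342 to 602 FPKM. Without that library OPT3 and FER1 passed as lower, with adjusted p of 0.0178 and 0.0349 in limma. Adding median-ratio scaling there left 1 iron gene passing as lower (against 2.73% of all genes).

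Seed storage transcripts were lower in OE1 on average, with wide spread. Of 12 listed, 6 were tested and 1 lay below without overlap (16.7%, against 13.6% of all genes), while 0 did after median-ratio scaling (against 8.2%). The cruciferin CRA1 measured 8.29, 48.7 and 1.43 FPKM in OE1 against 51.1, 388 and 96.8 FPKM in tt19-8. The groups did not overlap, by a small margin, and the log2 change was -3.60 ± 1.34 with an adjusted p of 0.336 in limma (0.126 to 0.833 over the alternatives). CRC measured 0.982, 15.4 and 0.871 FPKM in OE1 against 40.1, 172 and 13.9 FPKM in tt19-8, and OLEO1, an oil body protein, 2.2, 5.87 and 0.412 FPKM and 5.54, 35.7 and 7.78 FPKM. CRC and OLEO1 overlapped between the groups. In both groups replicate 2 was the highest library for CRA1, CRC and OLEO1. The part of seed material in the other differences was not tested.

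Of 30 genes of the mitochondrial genome tested, 26 overlapped and 4 lay below (13.3%, against 13.6% of all genes), with 0 above and a median log2 change of -0.32. After median-ratio scaling 4 lay below (against 8.2%) and 0 above (against 8.53%). ATMG01380 measured 2.09, 1.67 and 0.928 FPKM in OE1 against 7.19, 6.59 and 2.5 FPKM in tt19-8. ATMG01120 measured 2.79, 2.57 and 4.56 FPKM in OE1 against 14.6, 9.81 and 4.35 FPKM in tt19-8. Without tt19-8 replicate 3, 9 members passed as lower (7.22% of all genes did), and 2 did with median-ratio scaling as well (against 2.73%). In all 9 that library lay nearer to OE1, as in 90.9% of all genes called in that setting. Genes of the chloroplast genome lay above in 5 of 54 (9.26%, against 3.99% of all genes) and below in 2 (3.7%, against 13.6%). After median-ratio scaling 5 of 53 lay above (against 8.53%) and 1 below (against 8.2%). The calls without tt19-8 replicate 3 were 2 higher (against 3.27%) and 2 lower (against 7.22%), and with the scaling as well 1 higher (against 5.01%) and 0 lower (against 2.73%). ATCG01210 measured 13.1, 29.1 and 18.3 FPKM in OE1 against 10.2, 3.27 and 4.97 FPKM in tt19-8, and ATCG01180 measured 7.75, 21.4 and 8.52 FPKM and 6.08, 2.35 and 3.64 FPKM, while ATCG00620 was at 0, 0.266 and 0.247 FPKM in OE1 against 2.6, 1.94 and 2.35 FPKM in tt19-8. ATCG00620 averaged 1.23 FPKM over the 6 libraries. At a given FPKM, a gene shorter than 1 kb rests on fewer fragments, so its level is less certain. Organelle transcripts largely lack the poly(A) tail, and their level in a library depends on how RNA was selected, which the labels do not give.

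Of 7 reference genes, 2 lay below without overlap (28.6%, against 13.6% of all genes) and 0 above (against 3.99%), while after median-ratio scaling 0 lay below (against 8.2%) and 1 above (against 8.53%). The actin ACT8 measured 306, 327 and 314 FPKM in OE1 against 464, 505 and 328 FPKM in tt19-8, with a log2 change of -0.43 ± 0.22. GAPC1, of glycolysis, measured 1004, 1080 and 1015 FPKM in OE1 against 1725, 1594 and 1040 FPKM in tt19-8, with a log2 change of -0.46 ± 0.24. For both, tt19-8 replicate 3 read close to OE1, and without it both passed as lower, with adjusted p of 0.0462 and 0.0412 in limma, while neither passed with the scaling as well (0.124 and 0.125). ACT2, UBQ10, PP2AA3 and TIP41L overlapped, and SAND lay below at 37.4 to 41.6 and 41.9 to 55.8 FPKM.

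Among all genes with a mean of at least 5 FPKM, an unadjusted p under 0.05 and no overlap, 264 were higher in OE1 and 1033 lower, and the 10 steepest of each are named. The higher ones were led by PCC1, a defence- and clock-controlled gene, at 2.78, 7.01 and 27.9 FPKM in OE1 against 1.45, 2.12 and 1.53 FPKM in tt19-8. OE1 replicate 3 was far above the other libraries. AT7SL-1, the RNA of the signal recognition particle, measured 26.3, 20.1 and 38.6 FPKM in OE1 against 6.25, 4.24 and 13.9 FPKM in tt19-8, with a log2 change of 1.78 ± 0.36 and an adjusted p of 0.294 in limma (0.00638 to 0.833). NATA1, an acetyltransferase, averaged 18.9 ± 4.49 FPKM in OE1 against a tt19-8 mean of 5.78 ± 2.83 FPKM (SD, n = 3), without overlap. It had a log2 change of 1.61 ± 0.28 and an adjusted p of 0.19 in limma (0.00638 to 0.833). In both genes all OE1 libraries were high and tt19-8 replicate 3 was the highest of its group.

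RPL12-A, a chloroplast ribosomal protein, measured 999, 858 and 990 FPKM in OE1 against 217, 146 and 846 FPKM in tt19-8. Its log2 change was 1.66 ± 0.54 with 6 libraries, and it rose by 2.41 ± 0.21 without tt19-8 replicate 3, with an adjusted p of 0.00398 in limma (0.00398 to 0.833 over the alternatives). It has near-identical copies in the genome, so the division of reads among them is uncertain. The histone H4 gene HIS4 read 5.86 to 10.5 FPKM in OE1 and 0.683 to 4.89 FPKM in tt19-8, and is one of several genes that encode the same protein. AT1G79170 read 52.9 to 68.3 FPKM in OE1 and 8.32 to 40.0 FPKM in tt19-8, AT5G12880, a proline-rich protein gene, 33.9 to 44.7 and 8.07 to 29.5 FPKM, and AT1G59218, a disease resistance gene, 7.6 to 12.2 and 0.801 to 5.54 FPKM, with reads that may be shared with a near-identical copy. For each of these tt19-8 replicate 3 was the highest tt19-8 library. The chloroplast genes ATCG01210 and ATCG01180, given above, complete the 10. As stated there, the level of organelle transcripts depends on how RNA was selected, which the labels do not give.

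Of the 10 steepest lower genes, CRA1, PAP5, PAP14, PAP25, IPS1 and PRX71 are given above. AT5G17340 (chromosome 5, 5715624 to 5716268), annotated as a putative membrane lipoprotein, measured 3.13, 1.62 and 2.43 FPKM in OE1 against 7.53, 8.7 and 12.0 FPKM in tt19-8. All tt19-8 libraries were high, replicate 3 the highest, and the log2 change was -1.62 ± 0.25 with an adjusted p of 0.168 in limma, shared with ATCG00620 and AT1G69710 as the lowest of all genes (0.00663 to 0.833 over its alternatives). ATCG00620 and AT1G69710 were low, at means of 1.23 and 2.3 FPKM over the 6 libraries. BAM5, a beta-amylase, measured 20.4, 26.1 and 48.6 FPKM in OE1 against 84.1, 131 and 77.0 FPKM in tt19-8. PLA2A, a lipid acyl hydrolase of defence, measured 31.8, 47.2 and 56.9 FPKM in OE1 against 110, 204 and 105 FPKM in tt19-8. Neither overlapped, and the log2 changes were -1.64 ± 0.30 and -1.57 ± 0.29. AT2G05765, a snoRNA gene, measured 1.04, 2.0 and 2.31 FPKM in OE1 against 10.2, 11.4 and 4.62 FPKM in tt19-8.

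Other genes differed steeply between OE1 and tt19-8 replicates 1 and 2. The cineole synthase gene TPS-CIN measured 69.6, 50.8 and 56.6 FPKM in OE1 against 13.0, 9.67 and 67.1 FPKM in tt19-8. It rose by 2.28 ± 0.20 without tt19-8 replicate 3, with an adjusted p of 0.00398 in limma (0.00398 to 0.833 over the alternatives). AT3G41979, a 5.8S ribosomal RNA gene, measured 66.7, 194 and 56.1 FPKM in OE1 against 611, 361 and 66.6 FPKM in tt19-8. In both, tt19-8 replicate 3 lay inside the OE1 range. TPS-CIN has a near-identical neighbour, so the division of reads is uncertain.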

How the data were processed

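The authors deposited FPKM values, 1 table for each library, with 33602 gene identifiers in each. Per the submitters' processing notes HISAT 0.1.6, edgeR and the build TAIR10 were used, with no role given for each. The gene lengths, totals and strand setting are not given in the sources used here, so overlapping genes are uncertain. Symbols, positions and the 300 bases before genes came from RefSeq TAIR10.1, which matched 32835 identifiers.

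Depth was estimated from the steps between low FPKM values of single-exon genes (9610 in all). In each library 56.9 to 61.3% of 497 to 615 low values were whole fragments within 2%, so the depth is approximate. Genes at or above 1 FPKM in at least 3 of the 6 libraries were tested on log2(FPKM + 1) with limma 3.58.1 (R 4.3.3), eBayes with trend and robust on, and two-sided p-values adjusted by Benjamini-Hochberg over all genes tested (threshold 0.05). The pseudocount of 1 FPKM shrinks the changes of genes near or below it. Errors are limma standard errors. The fit was tested on simulated data. Tables and plots used Python 3.11.15, numpy 2.4.6, pandas 2.3.3 and matplotlib 3.10.9.

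Members and the 34 gene lists were chosen with earlier results of these data known, and the purple acid phosphatases were collected after their values were seen. Lists are described by counts and medians, with no test. The genes named are TT19, the 10 steepest non-overlapping genes each way with a mean of at least 5 FPKM, all flavonoid pathway and reference genes, up to 5 members with the smallest p of each other list described, and EXT3 and PIP2;1. TPS-CIN, AT3G41979, LRX1, AT1G69710 and list members that passed without tt19-8 replicate 3 were named after their values were seen. The alternatives, 15 planned and 1 added, are given in the closing section.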

Additional observations from a re-analysis of the deposited data

How the results depend on the processing

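The count of 0 genes past the threshold stayed at 0 with a pseudocount of 0.1 FPKM, with no filter, with a filter of 5 FPKM, with median-ratio scaling, with equal library totals and with eBayes without trend and robust. Leaving out 1 library gave 0 to 1823 genes, of which 0 to 569 were higher and 0 to 1254 lower. The high end came without tt19-8 replicate 3, and without OE1 replicate 3 the count was 4, all lower (PAP5, PAP14, PAP23 and BAM5). With array weights, 3459 genes passed (1318 higher and 2141 lower), tt19-8 replicate 3 having the lowest weight, at 0.355. All 9 libraries in the fit gave 3 genes (1 higher and 2 lower). The added setting, chosen after seeing the data, left out tt19-8 replicate 3 and applied median-ratio scaling, and gave 1344 genes (870 higher and 474 lower). The cause was not tested.

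Deviations of same-numbered OE1 and tt19-8 libraries correlated across genes at -0.06, 0.04 and 0.03. With 3 libraries in each group, these values cannot show whether the replicate numbers pair the samples. With the replicate block, 15 genes passed (5 higher and 10 lower), among them the seed genes CRC and OLEO1, with adjusted p of 4.1e-05 and 0.0344 in limma.

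Of 101 genes with a printed log2 change, level or adjusted p, 81 passed the threshold under at least 1 alternative and 3 changed sign. AT4 stood at 0.11 with median-ratio scaling, 0.00 with equal totals, 0.10 with array weights and 0.20 in the added setting, and at -0.12 to 0.15 with a library left out. PAP2 stood at -0.02 with array weights and at -0.02 to 0.53 with a library left out, the former without tt19-8 replicate 3, and SPX3 at 0.03 in the added setting. At the estimated depth, a gene of 1 kb below 0.0522 to 0.0618 FPKM rests on fewer than 3 fragments, which limits TT19. For a shorter gene that limit lies at a higher FPKM.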
